A study of Homo sapiens with 11 samples.

Results

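Weak m6A peaks found in H1299 cells only are regions of the H1299 peak list that carry a score under 250 and share no base with a peak of either A549 list. They number 13923 of the 39235 H1299 peaks, or 35.5%, and of the 90953 peaks in the 3 deposited lists together. A549 is a lung adenocarcinoma line and H1299 a large cell lung carcinoma line, and the study asked where their mRNA carries m6A. Fragments of poly(A) RNA from each line were enriched with an antibody against m6A (Synaptic Systems), giving 2 immunoprecipitations and peak lists for A549 (25074 and 26644 peaks) and 1 for H1299. The labels name no shRNA or treatment for these 3 samples, which differ in cell line alone as far as the labels say. H1299 has a single list, so that no value of it has a replicate. The peaks were chosen by their measured score and by their absence from the A549 lists, and every value below taken from the H1299 or A549 lists is therefore a description without a test.

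N6-methyladenosine, m6A, is the commonest internal modification of mRNA. It is written by the METTL3 and METTL14 methyltransferase, mostly at adenosines within the consensus known as DRACH, and lies mainly near stop codons, in 3' untranslated regions and in long internal exons. Antibody enrichment maps it as peaks, stretches of the genome where pulled-down fragments pile up, so that a peak marks a neighbourhood of a modified base and not the base itself. A peak caller scores each such pile-up. The scale of the scores is not stated for these lists, so that weak, faint and strong refer here to score alone. Peaks are given here by position on hg19, counted from 1. They were not assigned to genes, exons or sequence motifs here, since no genome or annotation of that build was used.

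The RNA-seq controls of the 2 lines, cells with an shRNA against GFP (1 library each), differed in most, though not all, of the markers listed for them. AKR1B10, an aldo-keto reductase abundant in A549 cells, stood at 33171 in A549 and 3.9 in H1299, and ALDH1A1, an aldehyde dehydrogenase, at 56122 and 0.2. The epithelial cadherin CDH1 stood at 386 and 1, and the mesenchymal filament gene VIM at 7562 and 14995. Of the markers listed for H1299, the transcription factor ZEB1 (47.6 in A549 and 32.7 in H1299), the tumour antigen PRAME (127 and 78.6) and the synaptic gene SYT1 (24.7 and 8) were not above A549. Of the markers of other cells, the fibroblast collagen COL1A2 (0.26 and 0) and the leukocyte gene PTPRC (0.26 and 0.2) were near 0. The collagen COL1A1 (59.7 and 12.5), the lysozyme gene LYZ (27.9 and 26.7) and the endothelial adhesion gene PECAM1 (16.6 and 8.4) were not, and CD14, a monocyte receptor, stood at 8.68 and 0.6. These are the authors' scaled signals, and the 2 tables were scaled separately.

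Absence from A549 was common among H1299 peaks, at 70.3% or more in every score bin below 600, and was not most frequent among the faintest. Among all H1299 peaks, 27064 (69.0%) overlapped neither A549 list. Among those scoring under 250 the share was 76.3% (95% Wilson interval 75.7 to 76.9%), and among those at or above it 62.6% (61.9 to 63.3%). All intervals on shares here cover counting error only, and neighbouring peaks are not independent. The share did not fall steadily with score: it was 71.6% below a score of 75, 70.3% from 75 to 100, and highest, at 80.6% (79.3 to 81.8%), from 200 to 250. Above the cut it was 77.8% from 250 to 300, 57.2% from 600 to 1000 and 9.18% from 2000 to 4000. Against single lists, 74.2% of H1299 peaks overlapped none of A549 list 1 and 77.1% none of list 2. The shares were lower the other way round, since 44.4% of A549 list 1 and 48.7% of list 2 overlapped no H1299 peak. Between the 2 A549 lists, from the same line, they were lower again. Of the peaks in list 1, 38.4% overlapped no peak of list 2, and of those in list 2, 37.6% overlapped none of list 1. A peak of one list missing from another is thus frequent within a line as well. Median widths were 795 bases in H1299 and 224 and 216 in A549 lists 1 and 2. A wider peak meets another more easily, so shares within and between lines are not on one footing.

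**Figure D1:**
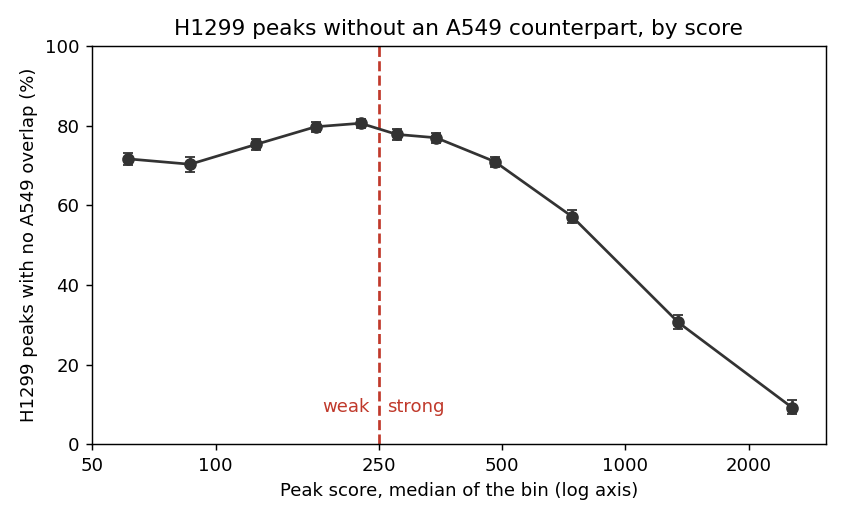
Share of H1299 peaks that overlap no A549 peak (vertical axis, percent) against the median score of each bin (log axis), with 95% Wilson intervals as bars and the score cut of 250 dashed. The share reaches 80.6% in the bin just below the cut and drops to 9.18% in the highest bin.

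The few peaks closest to the cut, picked by score, had similar ranges of width on either side of it. The 5 weak H1299-only peaks closest to the cut scored 249.87 to 249.99 and were 538 to 1211 bases wide, and the 5 closest above it scored 250.03 to 250.06 and were 514 to 1249 bases wide. The highest-scoring weak peak, at chr19:28765237-28766112, was 876 bases wide, and the lowest-scoring strong H1299-only peak, at chr11:20593243-20594133, was 891. At the other end, the lowest score of all was 50.01, at chr12:51437504-51438296, beside a minimum of 50.01 in the whole H1299 list. The median score of the weak H1299-only peaks was 147.71 (quartiles 95.55 and 197.18). The weak peaks that did overlap A549 had a median of 127, so that the H1299-only ones were not the fainter of the 2 sets.

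Weak H1299-only peaks were narrow and had 2 favoured widths. Their median width was 689 bases (quartiles 502 and 793). It was 792 for the weak peaks that overlapped A549, 932 for the strong H1299-only peaks and 1408 for the strong peaks that overlapped A549. In steps of 50 bases, 2005 of the weak H1299-only peaks (14.4%) were 750 to 800 bases wide and 1079 (7.75%) were 300 to 350. Fewer lay in between, at 516 (3.71%) from 400 to 450. Among the steps drawn, 750 to 800 was also the fullest for weak peaks overlapping A549 (7.5%) and strong H1299-only peaks (6.16%). In all, 42.0% of the weak H1299-only peaks lay between 600 and 800 bases, against 24.0% of the weak peaks that overlapped A549 and 21.1% of the strong H1299-only peaks. Only 219 (1.57%) reached 1500 bases, against 649 (15.0%) of the weak peaks overlapping A549. A wider region has more bases that can meet an A549 peak, so that the rule itself favours narrow peaks. A549 peaks were narrower still, with median widths of 224 and 216 bases in lists 1 and 2.

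**Figure D2:**
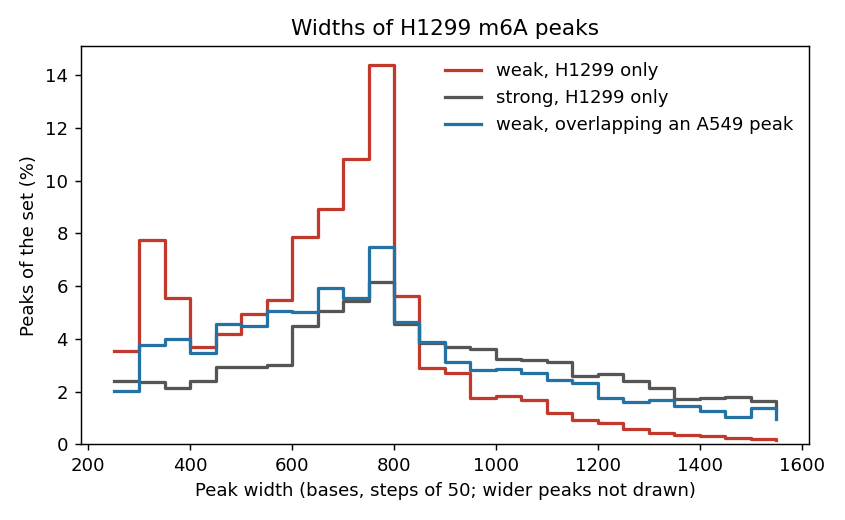
Share of each set of H1299 peaks (vertical axis, percent) by width in steps of 50 bases (horizontal axis), for weak H1299-only peaks, strong H1299-only peaks and weak peaks overlapping A549. The weak H1299-only peaks have 2 maxima, 7.75% at 300 to 350 bases and 14.4% at 750 to 800 bases. The strong H1299-only peaks and the weak peaks overlapping A549 are also highest at 750 to 800 bases, at lower shares.

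The 2 widths differed in score and in surroundings. The 2344 weak H1299-only peaks under 400 bases had a median score of 102.17, lay a median of 20642.5 bases from the nearest A549 peak, and had their nearest H1299 neighbour 12374 bases away. The 3510 peaks of 700 to 800 bases had a median score of 163.58, lay 44691 bases from A549 and had a neighbour at 2722.5 bases. The narrow class was thus fainter, more solitary and nearer to A549 peaks than the class of 700 to 800 bases. A long gap was not particular to it. Peaks of 400 to 500 bases, between the 2 favoured widths, had a median score of 120.37. Their median gap was 13120.5 bases and their median distance to A549 23457. The narrowest peaks were 271 bases wide, a width that 6 weak H1299-only peaks and 15 H1299 peaks in all shared. One of these, at chr3:12111853-12112123, scored 215.17, and another, at chrX:41196485-41196755, scored 121.49. The widest was the peak at chr19:36746483-36751137, of 4655 bases with a score of 68.85, followed by chr10:102120273-102124574, of 4302 bases with a score of 125.64. The 5 widest all lay apart from A549 peaks by 6094 to 25238 bases.

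Within the set, score ran together with how a peak was placed. From the lowest bin (under 100, 3777 peaks) to the highest (200 to 250, 3304 peaks), the median width went from 573 to 730 bases and the median distance to an A549 peak from 20695 to 45189 bases. The median gap to the nearest other H1299 peak went the other way, from 11682 to 2857.5 bases. The fainter the peak, then, the nearer it was to an A549 peak and the farther from another H1299 peak. Over the same bins, the share lying on chromosome 19, known as gene-dense, went from 4.40 to 1.66%, and the share on the X chromosome from 4.29 to 8.38%.

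Weak peaks of the same score that overlapped A549 had other values. In the bin under 100 their median width was 794 bases against 573, and in the bin from 200 to 250 it was 798 against 730. Their gap to another H1299 peak was 14199 bases in the lowest bin against 11682, and 8853.5 in the highest against 2857.5. Peaks within 1 kb of another H1299 peak made up 15.5% (14.4 to 16.7%) of the H1299-only peaks in the lowest bin, against 12.5% (11.0 to 14.3%) of those overlapping A549. In the highest bin these shares were 36.4% (34.8 to 38.1%) and 24.9% (22.0 to 28.0%). By this share, the sets lay closer together at the lowest scores than just below the cut.

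Most weak H1299-only peaks (79.9%) lay more than 5000 bases from any A549 peak. No distance for randomly placed regions was computed to set beside this. The median distance was 32663 bases. Of the 13923, 439 (3.15%) lay within 500 bases of an A549 peak, 2805 (20.1%) within 5000, and 2961 (21.3%) farther than 100000. The strong H1299-only peaks were farther still, at a median of 47096 bases. The closest approach was 2 bases, at chr2:37647382-37648050, which lay 2 bases from a peak of A549 list 1 and 75344 from the nearest peak of list 2. All of the 5 closest, at 2 to 9 bases, lay next to a peak of 1 list and at least 10578 bases from the other. The distance depended on the A549 list used. Against list 2 alone the median was 58397 bases and against list 1 alone 45139, with the members chosen by that list. With peaks less than 50% covered by A549 added to the set it was 19659.

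The number of weak H1299-only peaks on a chromosome followed the length of the chromosome more closely than the number of A549 peaks did. Over all chromosomes there were 4.63 weak H1299-only peaks per Mb of the span covered by any peak. By chromosome this density went from 2.30 per Mb on Y to 6.80 on chromosome 19, with 3.03 on chromosome 21, 3.88 on 13, 4.06 on 17, 4.76 on 4 and 6.07 on X. The highest density was 2.96 times the lowest. For weak peaks overlapping A549 it was 15.6 times, from 0.355 on Y to 5.53 on chromosome 19, and for A549 list 2 it was 20.3 times, from 1.87 to 38.1. Across the 24 chromosomes, Spearman's rho between the number of peaks and the span was 0.94 for the weak H1299-only peaks (Pearson's r 0.96) and 0.94 for the strong H1299-only peaks. It was 0.55 for the weak peaks that overlapped A549, 0.57 for A549 list 1 and 0.49 for list 2. The strong peaks that overlapped A549 stood between, at 0.84 (Pearson's r 0.88), with densities that differed 7.93-fold between chromosomes, so that overlap with A549 alone did not divide the sets. With the 2 chromosomes of most extreme span left out, rho was 0.92 for the weak H1299-only peaks. Against the counts of A549 list 2 the order was reversed, with rho at 0.56 for the weak H1299-only peaks and 0.97 for the weak peaks overlapping A549, which that list helped to choose. Chromosomes differ in copy number between lines, and all counts of a set come from the same libraries.

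**Figure D3:**
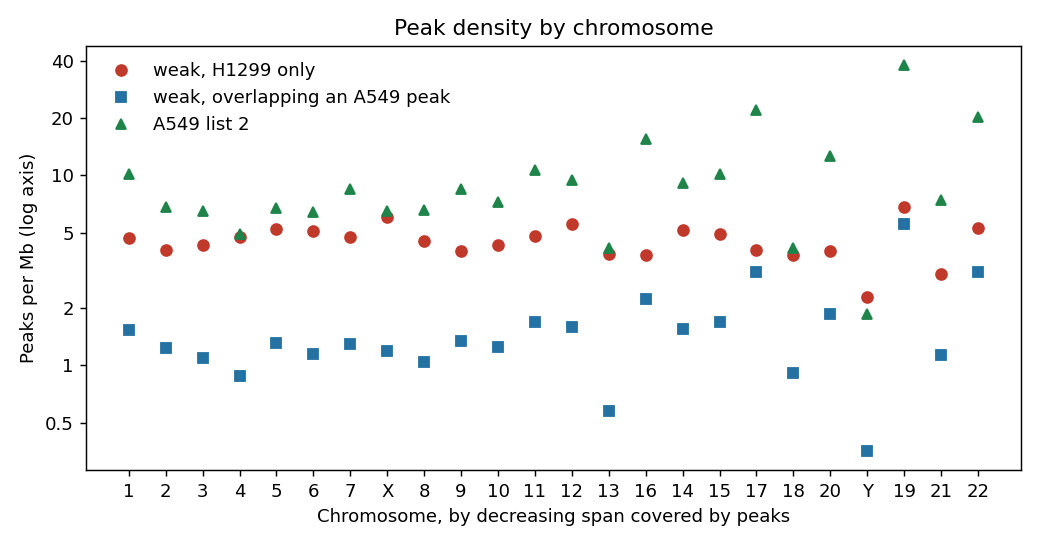
Peaks per Mb (log axis) on each of 24 chromosomes, ordered by the span that peaks of any list cover, for weak H1299-only peaks, weak H1299 peaks overlapping A549, and A549 list 2. The weak H1299-only peaks stay between 2.30 and 6.80 per Mb, while A549 list 2 runs from 1.87 to 38.1.

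Chromosomes 17 and 19, both gene-dense, show the contrast. Chromosome 19 held 401 of the weak H1299-only peaks (2.88%, interval 2.62 to 3.17%), 326 of the weak peaks overlapping A549 (7.55%, 6.80 to 8.37%), 148 of the strong H1299-only peaks (1.13%, 0.960 to 1.32%) and 8.43% of A549 list 2. H1299-only peaks were 55.2% of the weak peaks on chromosome 19 and 56.6% on chromosome 17, but 84.3% on chromosome 4 and 87.1% on chromosome 13, which are gene-poor. The rule leaves out peaks that meet an A549 peak, so this share depends by construction on the density of A549 peaks. A549 list 2 had 38.1 and 22.2 peaks per Mb on chromosomes 19 and 17, and 4.89 and 4.15 on 4 and 13. Gene density was not tested apart from this. The X chromosome held 942 weak H1299-only peaks (6.77%) and 186 of the weak peaks overlapping A549 (4.31%). Over all H1299 peaks, 3.30% lay on chromosome 19 and 7.06% on X, so that on both chromosomes the weak H1299-only peaks had a share slightly below that of the whole list. Median scores of the weak H1299-only peaks were 116.69 on chromosome 19, 109.43 on 22, 156 on 4 and 168.1 on X.

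At a finer scale, weak H1299-only peaks were found nearly everywhere. Of 2913 windows of 1 Mb that held a peak of any list, 2766 held at least 1 of them, with a median of 4 and a variance 2.30 times the mean. Such wide occupancy was not particular to the set. Strong H1299-only peaks occupied 2681 windows (92.0%), A549 list 1 2813 (96.6%) and A549 list 2 2680 (92.0%). Weak peaks overlapping A549, a smaller set, occupied 1779 (61.1%). The variance was 3.14 times the mean for strong H1299-only peaks and 17.2 times for A549 list 2. Over these windows, Spearman's rho of the weak H1299-only count was 0.24 with the strong H1299-only count and 0.30 with A549 list 2, whereas strong H1299-only peaks stood at -0.26 with that list. By rho with A549 list 2, the weak H1299-only peaks thus stood above the strong H1299-only ones. The fullest windows are named after their values were seen. The first, chr1:146000001-147000000, held 31 weak H1299-only peaks beside 13 strong ones, 2 weak and 19 strong H1299 peaks overlapping A549, and 25 peaks of A549 list 2. Next, with equal counts, came chr1:148000001-149000000, with 23 weak H1299-only peaks beside 26 strong ones, and chrX:49000001-50000000, with 23 beside 44.

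Weak H1299-only peaks had a close H1299 neighbour somewhat less often than H1299 peaks as a whole. The median gap to the nearest other H1299 peak was 7089 bases, against 6253 over all H1299 peaks. In 3978 peaks (28.6%, 27.8 to 29.3%) the gap was at most 1 kb, and in 6390 (45.9%) it exceeded 10 kb. Gaps of at most 1 kb were found for 43.0% (42.2 to 43.9%) of the strong H1299-only peaks and 17.7% (16.6 to 18.8%) of the weak peaks overlapping A549. For the strong peaks overlapping A549 the share was 28.3%, close to that of the weak H1299-only peaks, and over all H1299 peaks it was 32.2% (31.7 to 32.6%). The nearest neighbour was another weak H1299-only peak for 40.8%, a class that makes up 35.5% of all H1299 peaks, and a strong H1299-only peak for 31.9%, against 33.5%. The most solitary was chr10:125769243-125769936, with no other H1299 peak within 709696 bases, although a peak of A549 list 2 lay 689 bases away. Next came chr2:146263575-146264121, at 602347 bases.

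**Figure D4:**
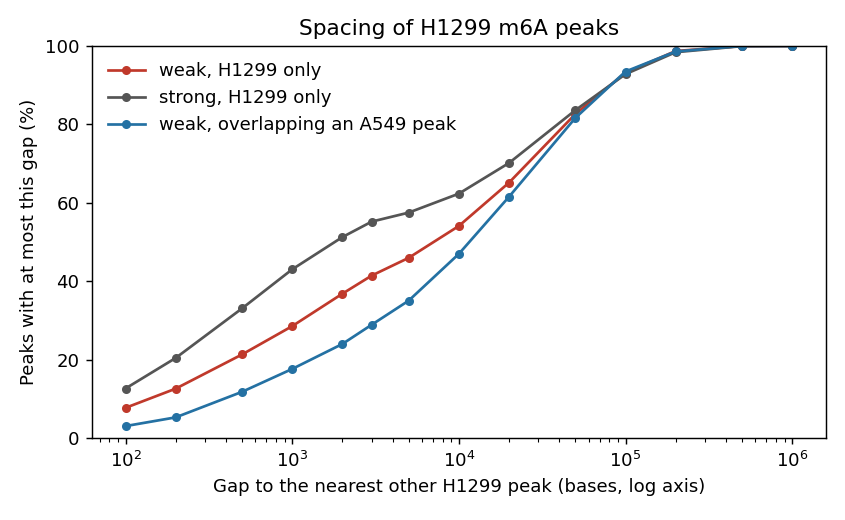
Share of peaks (vertical axis, percent) whose nearest other H1299 peak lies at most the given number of bases away (log axis), for 3 sets of H1299 peaks. At 1 kb the curves stand at 28.6% for weak H1299-only, 43.0% for strong H1299-only and 17.7% for weak peaks overlapping A549, and they come together from 50000 bases on.

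Close neighbours were gathered into groups, taken as runs of H1299 peaks at most 1 kb apart. Of the weak H1299-only peaks, 9945 (71.4%) stood alone. A further 1110 (7.97%) shared a group with their own kind only, 1853 (13.3%) with strong H1299-only peaks and no peak overlapping A549, and 1015 (7.29%) with at least 1 peak that overlapped A549. Groups that held a weak H1299-only peak and none overlapping A549 numbered 2038, among them 1383 pairs, 459 of 3 peaks, 176 of 4 and 19 of 5.

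With peaks at most 1 kb apart, few of these groups spanned more than 6 kb from first to last base. Pairs had a median span of 1977 bases and groups of 3 of 3952. Groups of 4 had a median of 4911 bases (quartiles 4373 and 5365) and groups of 5 of 5139 (4935.5 and 5353). Of the groups of 4, 93 (52.8%) spanned 4500 to 5500 bases and 8 (4.55%) exceeded 6 kb. With peaks up to 3 kb apart joined into groups, 9.84% of groups of 4 exceeded 6 kb. Over all 2038 groups, 148 spanned 5000 to 5500 bases, 71 spanned 5500 to 6000 and 14 (0.687%) exceeded 6 kb. Most of the larger groups also held strong H1299-only peaks. The 524 groups of weak H1299-only peaks alone had a median span of 1823.5 bases, and 8 (1.53%) spanned 4500 to 5500. Among them were 474 pairs, 10 groups of 4, with a median of 4418.5 bases, and 1 group of 5. The 876 groups in which a weak H1299-only peak stood beside a peak overlapping A549 had a median of 5164 bases for groups of 4, and 36 of them (4.11%) exceeded 6 kb. A549 groups made the same way were shorter, at 1956 bases in list 1 and 1755.5 in list 2 for groups of 4, and 6 of 406 groups of 4 in list 2 spanned 4500 to 5500 bases. The narrower A549 peaks, given above, go along with this, and their part in the difference was not tested. Spans were not computed for the 2368 H1299 groups without a weak H1299-only peak. Peak widths and the 1 kb reach enter every span by construction.

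**Figure D5:**
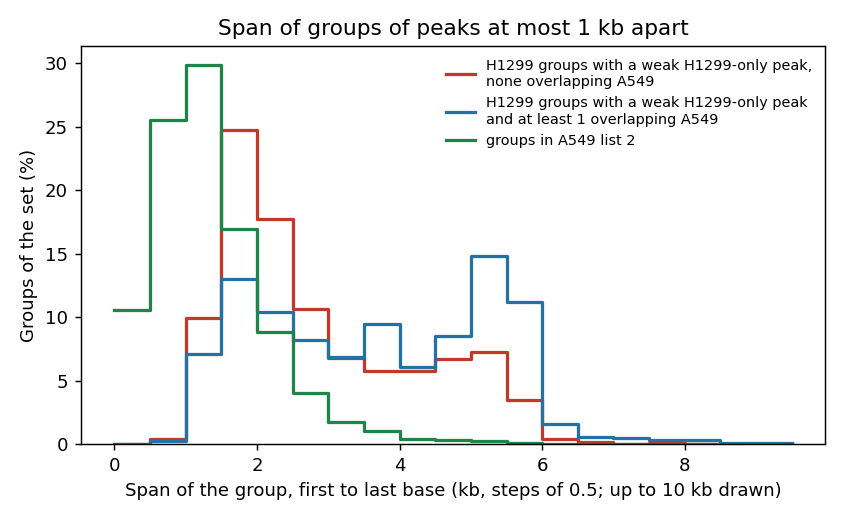
Share of groups (vertical axis, percent) by span in steps of 0.5 kb (horizontal axis) for H1299 groups holding a weak H1299-only peak, without and with a peak overlapping A549, and for groups in A549 list 2. The H1299 groups may also hold strong H1299-only peaks. The H1299 curves have a shoulder or maximum at 5 to 5.5 kb and drop at 6 kb, where the A549 curve is near 0.

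The densest run, with 5 weak H1299-only peaks inside 5 kb, was at chr2:43771675-43775786 and was the only run with that many. Its peaks scored 92.5, 214.05, 187.18, 113.35 and 153.16 in order of position and were 667, 1124, 588, 637 and 655 bases wide. No other H1299 peak lay within 5 kb, and the nearest A549 peak was 581 bases away. A run of 4 at chrX:142439911-142443382 scored 103.34 to 230.16, had 1 strong H1299-only peak nearby, and was 498993 bases from any A549 peak. A run of 4 at chr1:148335611-148338722, inside the second chromosome 1 window above, scored 50.8 to 227.46 with 2 further weak H1299-only peaks nearby.

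Certain exact scores recurred among the weak H1299-only peaks. The set held 8056 distinct scores, and 25 of these occurred at least 20 times each, covering 1541 peaks (11.1%), a share that this choice of scores fixes. The commonest were 196.85 with 150 peaks, 168.1 with 134, 235.12 with 133 and 145.38 with 123. The weak peaks overlapping A549, a smaller set, were screened for their own recurring scores with the minimum scaled to their number, at 7 peaks. There 7 scores recurred, covering 55 peaks (1.27%), and all 7 were among the 25. The recurring-score peaks fell in a tight range of widths, with quartiles of 637 and 767 bases and none under 404. Other weak H1299-only peaks had quartiles of 473 and 797. The range was not particular to the set. The 123 weak peaks overlapping A549 with one of these 25 scores had quartiles of 620.5 and 783.5 bases and none under 538. The recurring-score weak H1299-only peaks lay farther from A549 than the other weak H1299-only peaks, at a median of 55783 bases against 30062. Chromosome 19 held 1.56% of them against 3.04%, and the X chromosome 8.70% against 6.53%. Their median score was also higher, at 184.97 against 142.045. All weak H1299-only peaks scoring 150 to 200 lay a median of 40271 bases from A549. Of these, 2.29% were on chromosome 19 and 8.05% on X. The part of score in the differences was not tested. The split by recurring scores was made after the values of the set were seen.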

How the data were processed

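Per the submitters' processing notes, Bowtie, TopHat and the hg19 build were used, without versions or roles. Peak names start with MACS, per the file headers and lines, while neither the caller's version and threshold nor any use of input reads is stated in them. In the deposited lists each peak has a start, an end and, in A549 list 2 and H1299, a score of unstated scale. The score is 0 throughout A549 list 1. Read depth is unknown from peak lists. The authors' RNA signal per gene and library served only for marker levels. The A549 lists and their 2 immunoprecipitations were kept separate, and a peak overlapping either counted as shared from 1 base.

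Overlaps, gaps and groups were computed in Python 3.11.15 (pandas 2.3.3, scipy 1.17.1), checked on simulated intervals and against bedtools 2.31.1. Wilson intervals are at 95%. Windows are 1 Mb, and chromosome spans run from the first to the last peak of any list. The peaks and measures were chosen with earlier results of these data known. Peaks named are the 5 widest, narrowest, most solitary, nearest to A549 and on each side of the cut, and the 3 densest runs within 5 kb, of which examples are printed. The lowest-scoring peak was added after its value was seen, as were the grouping distance and all counts by group. Comparisons of genes on METTL3 knockdown, motif counts and transcript regions had been planned and were not run, because peaks were not tied to genes here.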

Additional observations from a re-analysis of the deposited data

How the results depend on the processing

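Of 44 values recomputed under alternatives, 25 stayed within the 95% interval of the reported value (for the count of peaks, within 1.5 times), and 19 moved outside it. The count of 13923 became 14912 against A549 list 2 alone, 14925 against list 1 alone, 10619 and 16532 with the score cut at 200 and 300, 16929 when at least 50% of a peak had to be covered to count as shared, and 13484 when an A549 peak within 500 bases counted. With 1 A549 list left out, the median distance to A549 was 45139 to 58397 bases, the median gap 7042.5 to 7595 bases, the median width 690 to 691 bases, the share within 1 kb of another H1299 peak 27.8 to 28.6%, the share on chromosome 19 2.90 to 3.12% and the median span of groups of 4 peaks 4937 to 4988 bases. With the cut at 200 the median distance was 29389 bases, the gap 8205, the width 673, the share within 1 kb 26.1% and that on chromosome 19 3.26%. With the cut at 300 the distance was 34476 bases, the gap 6551.5, the width 700 and the share within 1 kb 29.8%. With 50% coverage the distance was 19659 bases, the gap 7743, the width 701, the share within 1 kb 27.3% and that on chromosome 19 3.62%. With the 500-base reach the distance was 34819.5 bases and the share within 1 kb 27.5%. These alternatives change the members by construction. Spearman's rho of the count per chromosome with span stayed between 0.92 and 0.94 under them. The median span of groups of 4, 4911 bases, was 4833 with peaks at most 500 bases apart and 5023 at 3 kb, where 3.53 and 9.84% of such groups exceeded 6 kb against 4.55%; both were added after seeing the data. The score's unknown scale, the single H1299 list and unknown read depth limit all values. No paired analysis was possible because the peak lists compare 1 H1299 sample with 2 A549 samples and no test was made. Alternatives for motifs, gene assignment and RNA fits were not run.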
